A study of Mus musculus with 10 samples.

Results

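The genes described here are 37 genes of the cell cycle and DNA replication, taken as the rows whose gene symbol equals a listed symbol in 3 deposited tables of all genes. All 37 were found among 46509 rows, and all 37 passed an FPKM of 1 in at least 1 library, as did 12350 rows in all. By role, 8 are cyclins and kinases of G1, 5 are E2F factors, Rb1 and Myc, 11 act in S phase and 13 in mitosis. FPKM is a count of fragments scaled to transcript length and to sequencing depth, so levels can be set side by side between genes.

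The cell cycle is driven by cyclins that switch on their partner kinases, the CDKs. In G1, cyclin D with Cdk4 or Cdk6 and then cyclin E with Cdk2 phosphorylate the retinoblastoma protein, which releases E2F factors to transcribe the genes that copy DNA. Cyclins A and B with Cdk1, and the kinases Plk1, Aurka and Aurkb, then carry the cell through mitosis. FoxO factors are known to restrain the cycle in several cell types, among others through CDK inhibitors such as Cdkn1b, and Wnt signalling through beta-catenin is known to raise Myc and Ccnd1 in many epithelia. Mature proximal tubule cells are mostly quiescent and re-enter the cycle after injury.

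The 10 RNA-seq libraries of the study, each the only one of its group, came from conditionally immortalized mouse renal proximal tubule cells. They were derived from mice of mixed strain (N2 FVB) that carried a floxed TbRII allele and were crossed with the Immorto-mouse. That mouse provides a temperature-sensitive viral large T antigen that interferon gamma induces, and large T binds the retinoblastoma protein. Transfection with siRNA took place at 33 °C, and the cells were then held at 37 °C with interferon gamma taken away. Libraries 7, 8, 9 and 10, the ones used here, all received 100 uM H2O2 as oxidative stress and Wnt3a at 20 ng/mL, and differed in their siRNA. Library 7 had scramble siRNA, library 8 siRNA to FoxO1, library 9 siRNA to FoxO3 and library 10 siRNA to both genes. No library without H2O2 or without Wnt3a could be compared, because the 2 deposited lists of selected genes that cover libraries 1 to 6, with 1852 and 1637 genes, hold 0 of the 37 genes. The lists are short beside the 46509 rows of a table of all genes, so this 0 is not read as a result.

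Since each group is 1 library, the differences between libraries carry no error and no test was run on them. Foxo1 stood at 7.92 FPKM in library 7, 3.66 in library 8, 8.54 in library 9 and 4.67 in library 10. Foxo3 stood at 19.7, 17.7, 19.9 and 17.4 FPKM, so it was not lower in the library labelled FoxO3 siRNA, and directions given for library 9 are those of the library labelled so. The files do not give total fragments. From genes of low level, the relative depth was estimated as 0.884 for library 8, 0.920 for library 9 and 0.918 for library 10, with library 7 as the base. Of 15 proximal tubule markers only Gatm, Aqp1 and Lrp2 were measured, and the defining transporters Slc34a1 and Slc22a6 were at or near 0. Of 14 markers of other kidney cells only Csf1r was measured, at 1.80 FPKM in library 7.

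The promoters below are examples from the S phase and mitotic genes, and from the gene with the largest difference, E2f3. They are RefSeq windows on GRCm38.p6, from 250 bases before to 50 after a transcript start, written 5′ to 3′ on the gene's own strand. Capitals mark matches, on either strand, to an E2F site (TTTCGCGC or TTTGGCGC), a cell cycle homology region, or CHR (TTTGAA or TTCGAA), an NF-Y box (CCAAT) or a forkhead site (TGTTTAC). Mcm5, a subunit of the replicative helicase, is the S phase example (chr8:75109259-75109558, plus strand), with 2 overlapping E2F matches and 3 NF-Y boxes. An E2F match stood in only 4 of 10 S phase genes with a window, so Mcm5 is not typical of them in this motif. Ccnb2, cyclin B2, is the mitotic example (chr9:70421505-70421804, minus strand), with 2 CHR matches and 3 NF-Y boxes. E2f3 has 2 windows, and their starts lie 1672 bases apart (chr13:29986014-29986313 and chr13:29984342-29984641, minus strand). The upstream one holds 1 CHR match and 3 NF-Y boxes, and the downstream one holds none of the 4 motifs. Other forms of an E2F site were not searched, so a window without a match may still hold one.
Mcm5: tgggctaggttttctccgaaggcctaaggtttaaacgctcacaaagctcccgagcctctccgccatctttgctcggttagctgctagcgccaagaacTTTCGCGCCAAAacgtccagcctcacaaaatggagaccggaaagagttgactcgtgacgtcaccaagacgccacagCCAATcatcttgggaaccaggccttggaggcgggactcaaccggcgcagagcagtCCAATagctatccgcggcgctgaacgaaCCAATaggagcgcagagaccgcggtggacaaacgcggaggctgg
Ccnb2: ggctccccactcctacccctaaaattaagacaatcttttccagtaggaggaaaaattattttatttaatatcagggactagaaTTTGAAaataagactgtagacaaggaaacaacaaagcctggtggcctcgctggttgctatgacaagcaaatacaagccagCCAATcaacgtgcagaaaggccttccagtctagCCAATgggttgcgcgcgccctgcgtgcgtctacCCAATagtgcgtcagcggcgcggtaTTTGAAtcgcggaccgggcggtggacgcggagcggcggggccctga
E2f3 upstream: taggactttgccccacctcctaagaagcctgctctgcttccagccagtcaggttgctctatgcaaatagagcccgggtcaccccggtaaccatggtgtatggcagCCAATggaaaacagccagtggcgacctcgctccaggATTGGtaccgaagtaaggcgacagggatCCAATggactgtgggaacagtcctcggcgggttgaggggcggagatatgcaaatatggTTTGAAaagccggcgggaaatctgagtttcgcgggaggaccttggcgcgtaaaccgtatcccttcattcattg
E2f3 downstream: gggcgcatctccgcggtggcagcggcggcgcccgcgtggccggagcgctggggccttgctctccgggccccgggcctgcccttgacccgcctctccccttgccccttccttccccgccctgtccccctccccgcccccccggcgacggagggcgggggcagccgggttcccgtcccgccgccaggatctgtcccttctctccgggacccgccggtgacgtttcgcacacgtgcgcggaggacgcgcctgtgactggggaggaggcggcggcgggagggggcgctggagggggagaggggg

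Promoter windows were found for 29 of the 37 genes, 4 of them with 2 windows each, and a gene was counted if any of its windows held the motif. An E2F match stood in 4 of 10 S phase genes, namely Mcm3, Mcm5, Mcm6 and Mcm7, and in 1 of 11 mitotic genes, Cdk1, against 0.929% of all 27025 genes with a window. A CHR match stood in 9 of 11 mitotic genes and 3 of 10 S phase genes, against 21.7% of all genes. NF-Y boxes were found in 10 of 11 mitotic and 9 of 10 S phase genes, against 41.1% of all genes. The forkhead letters stood in 3 of the 29 genes, Ccnd3, Cdc45 and Mcm7, or 10.3% against 4.05% of all genes. Ccnd3 and Mcm7 are among the 4 genes with 2 windows, and each held the match in only 1 of them. These are matches of letters and say nothing of whether a factor was bound. The shares cover only the letters given above, and other forms of these sites were not counted.

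**Figure D1:**
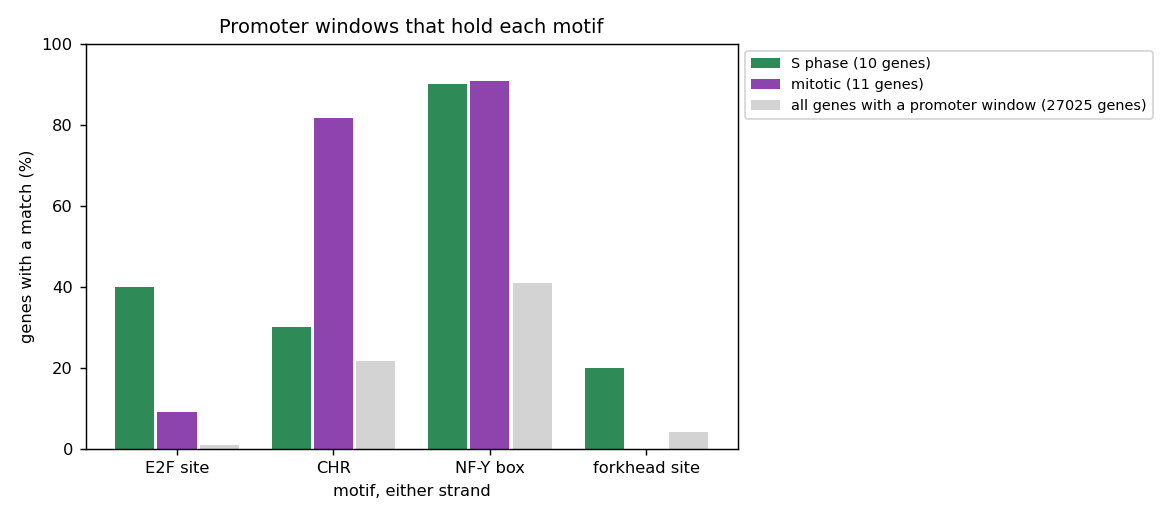
Percentage of genes with at least 1 match in a promoter window, by motif, for the S phase genes (10 with a window), the mitotic genes (11) and all 27025 genes with a window. E2F sites stand at 40.0% in S phase genes and CHR matches at 81.8% in mitotic genes, against 0.929% and 21.7% of all genes.

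With H2O2, Wnt3a and scramble siRNA, the cells expressed all of the set except E2f2 at levels above the median gene. In library 7 the median of the 37 genes was 62.2 FPKM, against 14.4 FPKM over all 12350 measured genes, and 36 of the 37 stood at 20 FPKM or more. Cdk4 was the highest at 345 FPKM, above 98.4% of measured genes, and the only low member was E2f2 at 1.22 FPKM. The S phase genes had a median of 117 FPKM, the mitotic genes 64.2, the G1 cyclins and kinases 38.3 and the group of E2F factors, Rb1 and Myc 24.5. Mki67, which encodes the proliferation antigen Ki-67, stood at 24.6 FPKM.

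The ratio of the highest to the lowest of the 4 libraries had a median of 1.15 over the 37 genes, and it was under 1.2 in 27 of them, all 13 mitotic genes included. Over all 5055 genes with FPKM of 20 or more in library 7 the median was 1.13 and 75.4% were under 1.2, so the 37 genes were about as steady as other genes of that level. Library 10 held the highest level in 14 of the 37, against 22.3% of those 5055 genes, and library 8 in 12, against 27.7%. Library 9 held the lowest level in 20, and it did so in 39.0% of the 5055. In RNA from whole cultures, fewer cells in a phase of the cycle and less RNA per cell cannot be told apart.

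**Figure D2:**
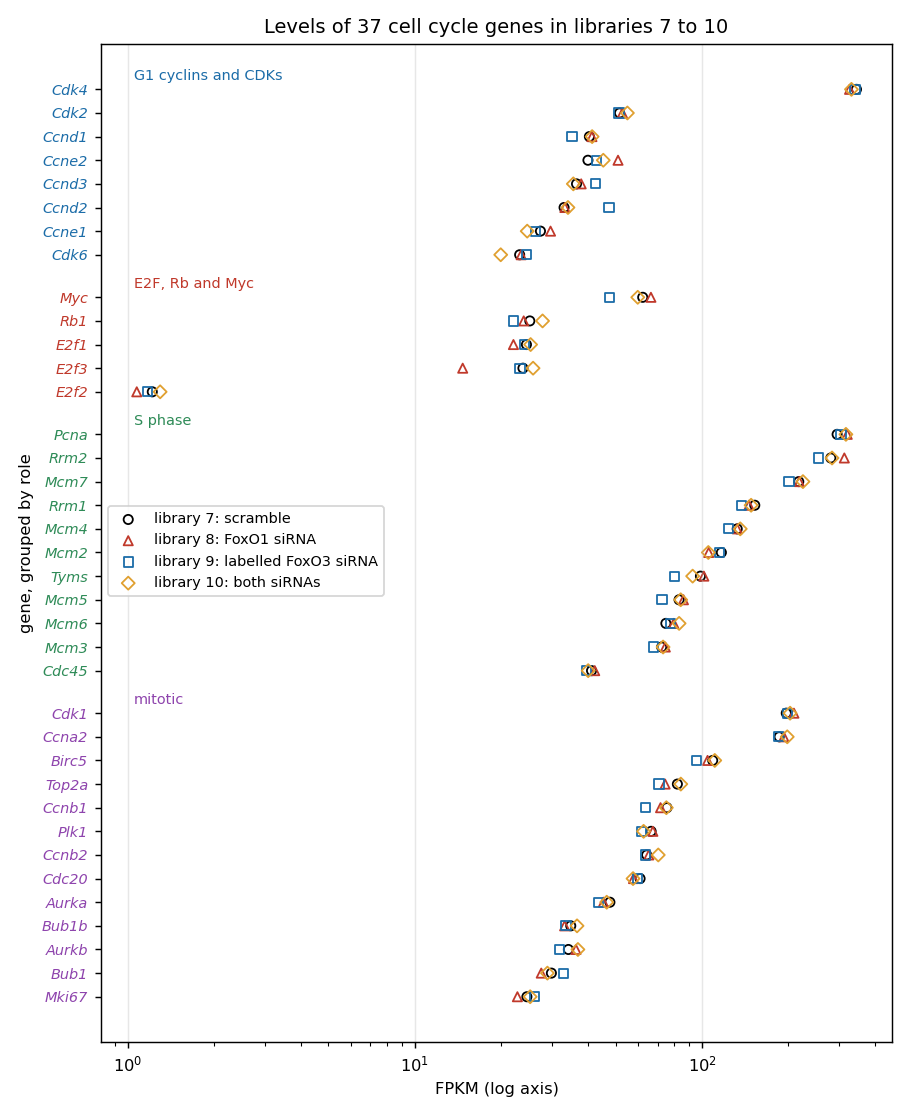
FPKM on a log axis of each of the 37 genes in libraries 7 to 10, grouped by role and ordered by the level in library 7. For most genes the 4 symbols lie on top of each other; E2f3 in library 8 (14.7 FPKM) and Ccnd2 in library 9 (47.4 FPKM) stand apart from the other 3 libraries.

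Ratios are log2((a + 1)/(b + 1)) of FPKM, and a gene counts as past the size rule at 0.58 either way, or 1.49-fold. Comparisons are named by their libraries, so 8/7 is library 8 over library 7. In 8/7, 1 of the 37 genes was past the rule, E2f3, and it was lower. Over all 12006 measured genes 2.68% were past it, and over the 5190 genes with FPKM of 20 or more, where 36 of the 37 lie, 0.443% were. In 9/7, 0 of the 37 were past the rule, against 4.53% of all measured genes and 1.45% of those with FPKM of 20 or more. In 10/7, 0 of the 37 were past it, against 2.96% and 0.806%. In 9/8, E2f3 alone was past it and higher, against 5.13% and 1.74%, and this ratio uses the same library 8 value, so it is no second observation. All 3 ratios over library 7 share that library. Read against all measured genes, the counts of 0 or 1 are not a result about these 37 genes. At a smaller size rule of 0.32, chosen after seeing the data, 2 of the 37 were past it in 8/7, 2 in 9/7, 0 in 10/7 and 4 in 9/8, against 9.2%, 14.7%, 10.2% and 17.4% of all measured genes. Genes with FPKM of 20 or more passed it less often. In 8/7, 64 of 5190 such genes were higher and 49 lower, and in 9/7, 140 and 233 of 5243. In 10/7, 65 of 5208 were higher and 100 lower, and in 9/8, 190 and 281 of 5220. The counts at 0.32 are not read as a result either.

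**Figure D3:**
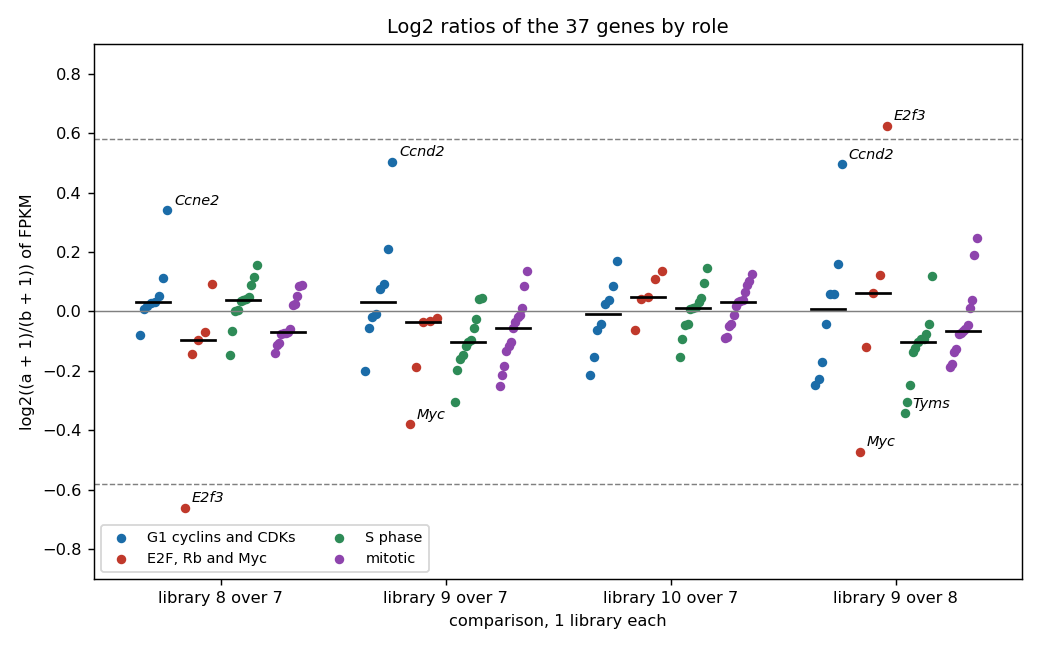
Log2 ratio of each of the 37 genes, by comparison and role; each point is a gene, the black bars are medians of a role and the dashed lines mark the size rule of 0.58. Only E2f3 crosses a dashed line, at -0.66 in library 8 over 7 and at 0.62 in library 9 over 8.

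E2f3 (ENSMUSG00000016477, mm10 chr13:29906575-29986063, minus strand), an E2F factor that activates S phase genes, stood at 23.8 FPKM in library 7, 14.7 in library 8, 23.2 in library 9 and 25.8 in library 10. The FoxO1 siRNA library was the low one, at 61.7% of the scramble library, and the other 3 libraries lay close together. The ratio was -0.66 in library 8 over 7, and 9 of 5190 genes with FPKM of 20 or more had a ratio as low or lower. Such ranks, here and for Myc, Ccnd2 and Ccne2 below, are those of the lowest or highest of the 37 genes in a comparison. Each gene was thus picked as an extreme. In library 10, where Foxo1 stood at 58.8% of library 7, the E2f3 ratio was 0.11. In the authors' deposited table for library 8, E2f3 had an unadjusted p of 0.223, a value that compares 2 single libraries. The table gives 1 value for the gene, so the 2 start sites, known to yield 2 E2f3 proteins, were not told apart.

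E2f1, also an activator, stood at 24.5, 22.0, 24.1 and 25.3 FPKM in libraries 7 to 10, with library 8 again the lowest but a ratio of -0.14. E2f2, the remaining activator, ran from 1.07 to 1.30 FPKM. E2f3 made up 48.1% of the summed level of the 3 activators in library 7 and 38.8% in library 8. Rb1, the retinoblastoma protein that binds E2F factors, stood at 25.1, 23.9, 22.0 and 27.8 FPKM, so library 9 was the lowest and library 10 the highest.

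Myc (ENSMUSG00000022346, chr15:61985391-61990374, plus strand), a transcription factor that drives growth and cycle entry and a known target of beta-catenin, stood at 62.2 FPKM in library 7, 66.4 in library 8, 47.7 in library 9 and 59.7 in library 10. The library labelled FoxO3 siRNA was the low one, with a ratio of -0.38 over library 7 and -0.47 over library 8. Of 5243 genes with FPKM of 20 or more, 2.78% had a 9/7 ratio as low or lower. Myc was the lowest of the 37 genes in 9/7, so this rank is not read as a result. It lay inside the size rule.

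The cyclin D genes, whose products open G1 with Cdk4 and Cdk6, changed their order in library 9. Ccnd1 stood at 40.5, 41.4, 35.2 and 41.4 FPKM in libraries 7 to 10, Ccnd2 at 33.1, 33.3, 47.4 and 34.1, and Ccnd3 at 36.6, 37.9, 42.6 and 35.6. Ccnd1 was thus the highest and Ccnd2 the lowest of the 3 in libraries 7, 8 and 10, while in library 9 Ccnd2 was the highest and Ccnd1 the lowest. Ccnd2 (ENSMUSG00000000184, chr6:127125162-127152193, minus strand) had a 9/7 ratio of 0.50, just inside the size rule, and 40 of 5243 genes with FPKM of 20 or more had one as high or higher. Its unadjusted p in the authors' deposited table was 0.0882, the smallest of the 37 genes in any of the 3 tables, where 0 of the 37 had one under 0.05 and the smallest adjusted value (q) was 0.999. The summed level of the 3 cyclin D genes was 110, 113, 125 and 111 FPKM, and Ccnd2 made up 29.6% of it in library 8 and 37.9% in library 9. Ccnd1 shares 23.4% of its exonic bases with LTO1 on the opposite strand, which stood at 9.87 FPKM in library 7. LTO1 ratios were 0.46, 0.57 and 0.42 in 8/7, 9/7 and 10/7, against 0.03, -0.20 and 0.03 for Ccnd1. Whether fragments were counted by strand is not stated in the labels or files, so reads of the pair may not be told apart.

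The kinases that cyclins D and E activate were steady, with Cdk6 in library 10 as the widest departure. Cdk4 stood at 345, 326, 341 and 331 FPKM and Cdk2 at 51.6, 52.8, 51.4 and 55.0. Cdk6 stood at 23.2, 23.4, 24.5 and 19.9 FPKM, a 10/7 ratio of -0.21, the lowest of the 37 genes in that comparison. Of the cyclin E genes, which act at the entry to S phase, Ccne1 stood at 27.4, 29.7, 26.3 and 24.6 FPKM. Ccne2 stood at 40.1, 51.0, 42.9 and 45.3 FPKM, highest in library 8 with a ratio of 0.34, and 57 of 5190 genes with FPKM of 20 or more reached that ratio. Both cyclin E genes were at their highest in library 8, the library in which E2f3 was lowest. Ccne2 shares 17.4% of its exonic bases with Ints8 on the opposite strand, whose 8/7 ratio was -0.08.

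The S phase genes lay slightly above library 7 in library 8 and slightly below it in library 9. Of 11, 9 had a ratio above 0 in 8/7, with a median of 0.04, and 9 had one below 0 in 9/7, with a median of -0.10. Over all genes with FPKM of 20 or more, 49.7% were above 0 in 8/7 and 58.2% below 0 in 9/7, with medians of 0.00 and -0.03. In 9/8, which restates both, 1 of 11 was above 0 and the median was -0.10, against 43.0% of genes with FPKM of 20 or more and a median of -0.03. That 1 gene was Mcm2, at 0.12. Both library 9 comparisons share that library, and 8/7 and 9/7 share library 7, so these counts are 1 pattern in 3 libraries. In 10/7 the ratios of the 11 genes ran from -0.15 to 0.15 with a median of 0.01. Of the 3 proximal tubule markers measured, Aqp1 also stood apart in library 9, at 14.3, 18.1, 37.2 and 23.5 FPKM in libraries 7 to 10, while Lrp2 ran from 12.2 to 15.4 and Gatm from 47.4 to 53.5 FPKM. Their part in the ratios was not tested.

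Among them, the subunits of the MCM helicase, a ring of 6 proteins that unwinds DNA at the fork, had a summed level of 697, 697, 657 and 706 FPKM. Mcm7 stood at 217, 218, 201 and 225 FPKM in libraries 7 to 10 and Mcm4 at 133, 133, 124 and 136. Mcm2 stood at 117, 106, 115 and 105 FPKM. Mcm5, whose promoter with 2 overlapping E2F matches is printed above, stood at 83.2, 86.2, 72.6 and 84.3. Mcm6 stood at 74.8, 79.7, 77.5 and 83.2 FPKM and Mcm3 at 72.3, 74.5, 67.8 and 73.2. The library labelled FoxO3 siRNA was the lowest in Mcm7, Mcm4, Mcm5 and Mcm3. It was not the lowest in Mcm2, where libraries 8 and 10 were, nor in Mcm6, where library 7 was. The order of levels was Mcm7, Mcm4, Mcm2, Mcm5, Mcm6 and Mcm3 in libraries 7, 8 and 10, and in library 9 Mcm6 stood above Mcm5. Cdc45, which joins the MCM ring in the active helicase, stood at 41.2, 42.3, 39.7 and 40.1 FPKM.

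Among the genes that supply nucleotides, Tyms and Rrm2 held the widest S phase differences. Their ratios of the highest to the lowest library were 1.27 and 1.23. Pcna, which holds the polymerase on DNA, had a narrow one of 1.08. Tyms, thymidylate synthase, stood at 98.8, 101, 80.0 and 92.8 FPKM, and its 9/7 ratio of -0.30 was the lowest of the 11. Rrm2, the regulated subunit of ribonucleotide reductase, stood at 281, 313, 254 and 284 FPKM, highest in library 8 and lowest in library 9. Its partner Rrm1, the large subunit, stood at 153, 146, 137 and 148 FPKM, and here library 7 was the highest. Pcna, the sliding clamp, stood at 295, 320, 305 and 317 FPKM, lowest in library 7.

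In the mitotic genes the differences were small and mostly below 0 in 8/7 and 9/7. Their 8/7 ratios ran from -0.14 to 0.09 with a median of -0.07, their 9/7 ratios from -0.25 to 0.13 with a median of -0.06, and their 10/7 ratios from -0.09 to 0.13 with a median of 0.03. Below 0 were 8 of 13 in 8/7, 10 of 13 in 9/7 and 5 of 13 in 10/7, against 50.3%, 58.2% and 53.7% of genes with FPKM of 20 or more. S phase and mitotic genes thus lay on opposite sides of 0 in 8/7, by 0.04 and -0.07, and on the same side in 9/7; no test of that difference was made.

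Of the mitotic cyclins and their kinase, Ccnb1, cyclin B1, had the lowest 9/7 ratio of the 13 at -0.25, with 75.5, 71.7, 63.5 and 75.1 FPKM in libraries 7 to 10. Ccnb2 stood at 64.2, 65.3, 63.4 and 70.4 FPKM, Ccna2, cyclin A2, at 186, 193, 185 and 198, and Cdk1, the kinase they activate, at 197, 209, 199 and 203. Their 9/7 ratios were -0.02, -0.01 and 0.01. Top2a, the topoisomerase that untangles chromosomes, stood at 82.1, 74.4, 70.8 and 84.4 FPKM and Birc5, survivin, of the chromosomal passenger complex, at 109, 105, 95.9 and 111. In both, libraries 8 and 9 were the low ones.

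Of the mitotic kinases, Plk1, polo-like kinase, stood at 66.5, 67.4, 61.4 and 62.6 FPKM, Aurka, the aurora kinase of the spindle poles, at 47.8, 45.3, 43.6 and 46.6, and Aurkb, the aurora kinase of the passenger complex, at 34.2, 36.4, 31.9 and 37.0. Library 9 was the lowest in all 3. Bub1, a spindle checkpoint kinase, stood at 29.9, 27.5, 33.0 and 28.9 FPKM and Mki67 at 24.6, 22.8, 26.2 and 25.2, and both were highest in library 9. Bub1b, which encodes a checkpoint protein that holds back the anaphase-promoting complex, stood at 34.9, 33.2, 33.6 and 36.7 FPKM, and Cdc20, the activator of that complex, at 60.9, 57.7, 59.4 and 57.5. Markers of proliferating cells therefore did not move one way in library 9.

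Other genes of the pathway, 117 in 5 lists, were all measured, and 0 of the 117 were past 0.58 in 8/7, 9/7, 10/7 or 9/8. Of all measured genes, 2.68%, 4.53%, 2.96% and 5.13% were past it. Of genes with FPKM of 20 or more, 0.443%, 1.45%, 0.806% and 1.74% were, so the counts of 0 are not read as a result about the 117 genes. The 2 deposited lists of selected genes, with 1852 and 1637 genes beside 46509 rows in a table of all genes, hold 0 of the 117 as well. No share for genes of a like level was taken, so this 0 is not read as a result. CDK inhibitors, which block cyclin and CDK complexes, included the highest levels: Cdkn1a, induced by p53, stood at 463, 455, 515 and 467 FPKM in libraries 7 to 10, and Cdkn2a at 401, 375, 427 and 363. Levels are per gene, so transcripts of Cdkn2a were not told apart, and its level may not all be that of a CDK inhibitor. Cdkn2d, an inhibitor of Cdk4 and Cdk6, stood at 14.7, 16.7, 22.1 and 18.4 FPKM, lowest in the scramble library and highest in library 9, with a 9/7 ratio of 0.56. Cdkn2b and Cdkn1c had 9/7 ratios of -0.16 and 0.21. Of the 7 inhibitors, 5 were above 0 in 9/7 with a median of 0.11, against 41.8% of genes with FPKM of 20 or more and 45.9% of all measured genes above 0. Cdkn1b stood at 40.4, 42.7, 43.9 and 44.8 FPKM.

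The 40 genes of origin licensing and the replication fork resembled the S phase members in sign. In 8/7, 28 of 40 were above 0 with a median of 0.06, in 9/7, 32 of 40 were below 0 with a median of -0.10, and in 9/8, 36 of 40 were below 0 with a median of -0.19. Of all measured genes 48.1% were above 0 in 8/7, 54.1% below 0 in 9/7 and 52.4% below 0 in 9/8. Of genes with FPKM of 20 or more, 49.7% were above 0 in 8/7 and 58.2% below 0 in 9/7. In 9/8, 43.0% of genes of that level were above 0, against 4 of the 40 fork genes. Part of the lean below 0 in 9/7 and 9/8 is thus shared by genes of that level. Gins1, of the GINS complex that completes the helicase, stood at 14.6, 13.5, 10.1 and 13.9 FPKM, a 9/7 ratio of -0.50. Cdt1, which loads the MCM ring, stood at 40.5, 43.9, 31.9 and 37.0 FPKM, a 9/7 ratio of -0.34, whereas Orc1, of the origin recognition complex, was higher in library 9, at 13.4 against 10.4 FPKM. Of 10 genes of nucleotide supply, 9 were above 0 in 8/7 and 8 below 0 in 9/7, read against the same shares as the fork list. Rrm2b, the ribonucleotide reductase subunit induced by p53, was the exception in 8/7 at -0.34 and stood at 12.9, 10.0, 9.54 and 10.5 FPKM, highest in the scramble library. Shmt1, a folate enzyme, had its widest ratio in 10/7, -0.28, and Cad, of pyrimidine synthesis, in 9/7, 0.25.

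Of 45 genes of mitotic entry and the spindle, 39 were below 0 in 9/7 with a median of -0.10, and 31 each in 8/7 and 10/7 with medians of -0.02 and -0.03. Below 0 were 54.1%, 51.9% and 54.3% of all measured genes in 9/7, 8/7 and 10/7, and 58.2%, 50.3% and 53.7% of those with FPKM of 20 or more. Part of this lean is thus shared by all genes. Ube2c, the ubiquitin-conjugating enzyme of the anaphase-promoting complex, stood at 155, 135, 116 and 137 FPKM, a 9/7 ratio of -0.42. Pkmyt1, a kinase that holds Cdk1 inactive, had a 9/7 ratio of -0.40, and Cenpf, a kinetochore protein, an 8/7 ratio of -0.30. In the list of other E2F, pocket protein and MuvB genes, 15 in all, the medians were 0.02, -0.10 and 0.01 in 8/7, 9/7 and 10/7. Lin37, of the MuvB core, had the widest ratio there, 0.43 in 10/7, and stood at 19.2, 23.6, 21.7 and 26.4 FPKM. E2f8, a repressor E2F, had a 9/7 ratio of -0.31, and Rbl1, a relative of Rb1, one of -0.21.

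**Figure D4:**
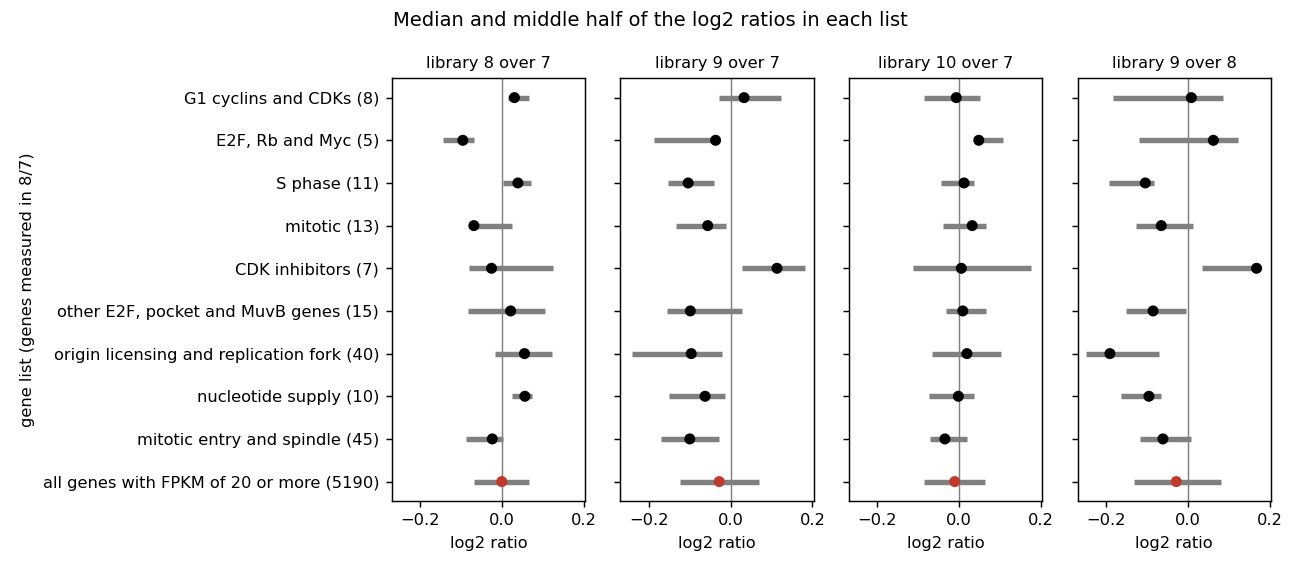
Median (point) and middle 50 percent of genes (bar) of the log2 ratio in each list and comparison, with all genes of FPKM of 20 or more as the last line (red point). The replication fork list has its lowest median in library 9 over 8, at -0.19, and all medians lie within 0.2 of 0.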

How the data were processed

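RNA was sequenced from 1 library per group with reads of 100 nt on a HiSeq 2500, per the labels. The submitters' processing notes name mm10 as build and list TopHat2, Cufflinks and Cuffdiff; their versions and settings, the annotation and the strandedness are not stated there. For libraries 8, 9 and 10 against library 7, the authors deposited 1 table each of FPKM values for all genes. Each also holds p-values and q-values (so named per the file headers) from the authors. Each table was scaled on its own, so ratios with library 7 were formed within a table, and for 9/8 the library 9 values were multiplied by 0.998. Printed levels are as deposited, with library 7 from the table of library 8.

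Ratios used a pseudocount of 1 FPKM, and a gene counted as measured at 1 FPKM in at least 1 of the libraries compared. Members and lists were chosen with earlier results of these data known. Every measured member is named, with up to 3 genes of each pathway list by largest absolute ratio, beside a few chosen after their values were seen (Cdkn1a, Cdkn2a, Cdkn1b). Gene positions and exon overlaps came from GENCODE M21 (GRCm38). Python 3.11.15, pandas 2.3.3 and numpy 2.4.6 were used. Alternatives were other pseudocounts (0.1 and 5 FPKM), filters, scaling, status and size rules. The precision is limited by unknown depth, and no counting interval was computed.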

Additional observations from a re-analysis of the deposited data

How the results depend on the processing

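No paired analysis was possible because each group holds 1 library. With a pseudocount of 5 FPKM, 0 genes were past 0.58 in 8/7 and in 9/8, since E2f3 stood at -0.55 and 0.52. With a size rule of 0.32, chosen after seeing the data, 2 genes were past it in 8/7 (E2f3 and Ccne2), 2 in 9/7 (Ccnd2 and Myc), 0 in 10/7 and 4 in 9/8 (E2f3, Ccnd2, Myc and Tyms), against 9.2%, 14.7%, 10.2% and 17.4% of all measured genes. Genes with FPKM of 20 or more passed that rule less often, with the counts given in the results. The count of the 37 genes past 0.58 stayed as it was under the pseudocount of 0.1, both filters, rescaling to the median, the status filter and, for 9/8, division of the deposited values as they stand. Of the 117 pathway genes, 1 CDK inhibitor, Cdkn2d, was past 0.58 in 9/7 with the pseudocount of 0.1. Counts on either side of 0 depended on the scaling. After rescaling, 9 of 13 mitotic genes were below 0 in 9/7 and 4 in 10/7, and 25 of the 37 in 9/7. Of 40 fork genes, 30 were below 0 in 9/7 and 34 in 9/8. Of 45 mitotic entry genes, 37 were below 0 in 9/7 and 26 in 10/7. Of all genes at an FPKM of 20 or above, 52.2% were below 0 in 9/7, 48.0% in 10/7 and 53.3% in 9/8. Some other printed list counts also shifted. The S phase counts did not change. These counts were run after seeing the data. The medians by role moved by at most 0.0952 (log2) under these alternatives, when means replaced medians, and when E2f3 was left out. Most of these medians are no larger than that shift. Ratios of 1 library to another hold library effects that depth and FPKM alone cannot show.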
